A study of Mus musculus with 10 samples.

Results

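The 9 genes described here encode enzymes that make glutamine, that take nitrogen from it, or that move the amino group of glutamate: *Glul*, *Glud1*, *Got1*, *Got2*, *Gpt2*, *Asns*, *Gfpt1*, *Ppat*, and *Cad*. They were grouped by enzyme activity, with earlier results of these samples already known, and they are 9 of the 51717 genes that could be given a level. All 9 passed the filter on low counts and were among the 12381 genes tested. RNA was sequenced from CD45.2+ granulocyte-macrophage progenitors (GMPs), bone marrow cells that give rise to neutrophils and monocytes. They were sorted from mixed chimeras (male, strain C57Bl6/N), irradiated hosts whose marrow had been rebuilt for at least 8 wk by CD45.2+ cells of either genotype together with WT CD45.1+ cells, so the sort on CD45.2 took the cells of the stated genotype. The WT group (*ROSA26 CreER+/-*) had 5 samples of 1 mouse each, and the recent KO group (*Mpc2fl/fl; ROSA26 CreER+/-*) had 5 samples that each pooled 2 mice. Both groups carried the CreER transgene, which is driven from a ubiquitous locus and becomes active with tamoxifen, and both ate tamoxifen chow for 2 wk until they were killed. The comparison asks how GMPs differ just after they lose *Mpc2*, a subunit of the carrier that brings pyruvate into mitochondria.

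Glutamine and glutamate are the main nitrogen carriers of the cell. Glutamine gives its amide nitrogen to purines, pyrimidines, asparagine, and amino sugars, and each of these transfers leaves glutamate behind. Glutamate in turn gives its carbon to the TCA cycle as α-ketoglutarate, either through glutamate dehydrogenase or through transaminases that pass the amino group to a keto acid. Pyruvate is one such keto acid, and its transamination gives alanine.

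Among the 9 enzymes, *Glul*, which encodes glutamine synthetase, differed most between groups. Its mean was 1.27-fold higher in recent KO samples, and every recent KO sample lay above every WT sample. *Ppat*, which opens purine synthesis, was 1.12-fold higher. The other 7 differed by less, in either direction. None of the 9 passed the test across all genes at an adjusted p of 0.05 (quasi-likelihood test of edgeR, adjusted by Benjamini-Hochberg), against 0.331% of all genes tested. *Glul* and *Ppat* had an unadjusted p under 0.05, both with higher levels in recent KO samples, which is 2 of 9 against 10.2% of all genes. Of the 2, *Glul* kept such a p under all 21 alternatives run and *Ppat* under 16 of them. DESeq2 called 1 of the 9, *Glul*, and 1.09% of all genes that it tested.

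The start region of 3 of these genes is shown because their transcript levels are described below and because *Asns* and *Got1* carry the letters of a known stress element. RefSeq gives a window of 250 bases before and 50 bases after the start on GRCm38.p6, and all 9 genes matched an entry. Capitals mark a match to TGATGNAA, the element that ATF and C/EBP factors bind when amino acids run short, searched on both strands. These letters stood in the windows of *Asns* and *Got1*, and in 3.97% of 32851 promoter windows of that length. The E-box CACGTG, the letters that MYC binds, stood in 0 of the 9 windows and in 7.15% of all windows.
Glul, chr1:153899679-153899978, plus strand: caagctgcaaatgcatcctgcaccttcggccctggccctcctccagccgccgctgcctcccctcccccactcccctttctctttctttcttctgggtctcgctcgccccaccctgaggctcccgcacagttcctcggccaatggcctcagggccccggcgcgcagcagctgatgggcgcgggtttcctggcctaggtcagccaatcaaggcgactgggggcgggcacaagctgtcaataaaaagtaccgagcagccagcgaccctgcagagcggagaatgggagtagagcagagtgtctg
Asns, chr6:7693160-7693459, minus strand: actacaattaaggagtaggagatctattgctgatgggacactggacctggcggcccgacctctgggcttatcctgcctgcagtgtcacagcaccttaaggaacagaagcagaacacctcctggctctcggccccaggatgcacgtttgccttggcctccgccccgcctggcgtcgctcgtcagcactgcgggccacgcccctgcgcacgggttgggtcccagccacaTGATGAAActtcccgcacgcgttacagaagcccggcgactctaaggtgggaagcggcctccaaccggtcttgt
Got1, chr19:43524556-43524855, minus strand: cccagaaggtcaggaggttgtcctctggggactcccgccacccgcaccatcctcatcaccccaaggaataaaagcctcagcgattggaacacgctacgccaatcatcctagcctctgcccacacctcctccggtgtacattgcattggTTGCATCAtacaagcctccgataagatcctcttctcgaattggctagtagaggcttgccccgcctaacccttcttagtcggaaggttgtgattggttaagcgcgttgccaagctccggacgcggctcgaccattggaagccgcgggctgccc
The match in *Asns* began 23 bases before the RefSeq start and read TGATGAAA. The annotation used for gene positions starts *Asns* farther upstream, at chr6:7693254, so there the match lies inside the gene. In *Got1* the match began 102 bases before the start and read TTGCATCA, the same element on the opposite strand. The *Glul* window held neither motif and was 64.3% G and C. A match is a description of letters, and binding was not measured in these samples.

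Estimated reads totaled 14033776 to 19745405 per sample, so that 3 counts, the floor used for a gene at 0, stood for 0.152 to 0.214 CPM (counts scaled to the library total). *Mpc2* itself was 89.1 ± 26.9 CPM in WT and 32.2 ± 10.2 in recent KO samples (mean ± SD, n = 5 each, as throughout) with no overlap, a log2 fold change of -1.46 (edgeR adjusted p = 0.0156). The 10 GMP markers were all detected, at a summed 87833 to 123640 CPM in WT and 51949 to 89874 in recent KO samples, with 4 of the 5 recent KO samples below every WT sample. That sum was 99.2% granule genes in WT (*Mpo*, *Elane*, *Prtn3*, and *Ctsg*, none of them called), and of the other 6 markers 3 had a higher mean in recent KO samples (*Kit*, *Cd34*, and *Cd27*) and 3 a lower one, with none called. The summed level of 6 macrophage markers was 15.3 to 29.4 CPM in WT and 31.3 to 54.8 in recent KO samples, without overlap. Of the 6, *C1qa*, *C1qb*, and *C1qc* were called higher. *Adgre1* had a lower mean in recent KO samples (3.02 CPM in WT and 2.29 in recent KO). *Vcam1* (10.1 and 11.5 CPM) and *Mrc1* (0.445 and 1.07 CPM) had higher means, and neither they nor *Adgre1* were called. The summed level of 4 megakaryocyte markers was 7.15 to 14.3 CPM in WT and 17.1 to 25.8 in recent KO samples, without overlap, and 0 of the 2 that could be tested (*Pf4* and *Itga2b*) were called. The summed level of 6 erythroid markers was 6.36 to 24.9 CPM in WT and 13.6 to 125.5 in recent KO samples, with 3 of 5 above every WT sample. The summed late neutrophil, monocyte, B cell, T and NK cell, mast cell and basophil, and stem cell markers overlapped between groups. In sorted bulk samples such as these, fewer cells of a type and less RNA per cell cannot be told apart.

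**Figure D1:**
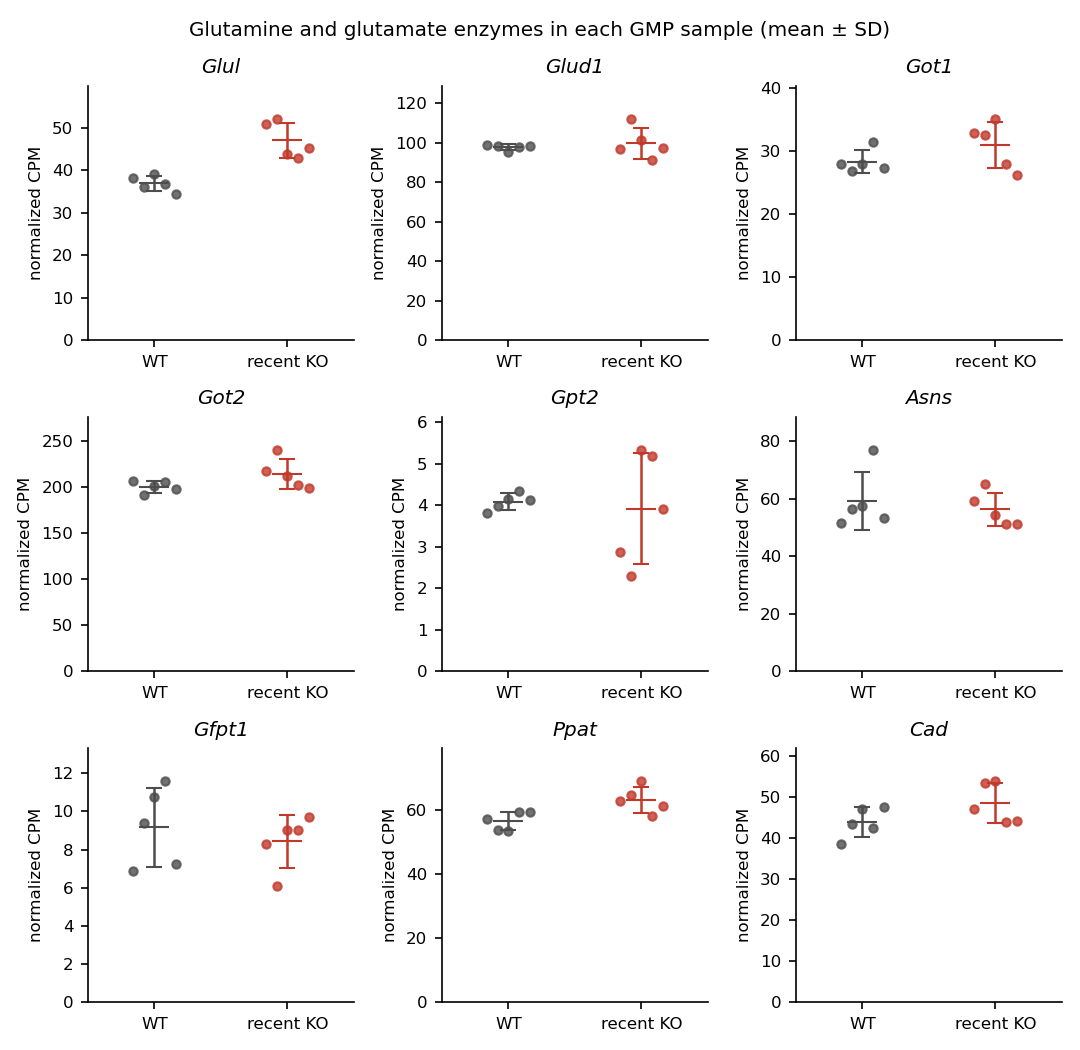
Normalized CPM (y axis, from 0) of each of the 9 enzymes in the 5 WT and the 5 recent KO samples (x axis); each point is a sample, the short line is the mean, and the bar is the SD. *Glul* is the only panel in which no recent KO point, from 42.9 CPM upward, falls as low as the highest WT point at 39.1 CPM.

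Glutamine synthetase joins ammonia to glutamate and is the enzyme through which cells make their own glutamine. *Glul* (ENSMUSG00000026473) lies at chr1:153899944-153909723 on the plus strand of GRCm38. Its normalized CPM was 38.1, 36.0, 39.1, 36.8, and 34.5 in the WT samples and 50.8, 52.0, 43.8, 42.9, and 45.3 in the recent KO samples. The lowest recent KO sample thus lay above the highest WT sample. The same was true of 1.11% of all genes tested. The mean was 36.9 ± 1.80 CPM in WT and 47.0 ± 4.15 in recent KO samples, a log2 fold change of 0.35 (SE 0.074, edgeR adjusted p = 0.0770) and a fold change with a 95% interval of 1.14 to 1.42.

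That adjusted p missed the threshold, and *Glul* stood at rank 56 by p among the genes tested. Leaving out 1 sample at a time gave adjusted p-values of 0.0835 to 0.170 in edgeR. The adjusted p was 0.0329 when samples were scaled by total reads only, 0.0488 after upper quartile normalization, 0.0411 without the filter on low counts, and 0.00602 in DESeq2. With scaling by total reads only, the log2 fold change of *Glul* was 0.42, and the median of all genes was itself 0.069. The side of the threshold on which *Glul* fell thus depended on the processing, with a range of 0.00602 to 0.211 over the 11 alternatives that kept all samples. The direction was the same under all 21 alternatives run. The summed macrophage markers, of which only the *C1q* genes were called, and the summed megakaryocyte markers were also higher in every recent KO sample than in every WT sample. The summed GMP markers, nearly all granule genes, were below every WT sample in 4 of 5 recent KO samples. The part of these differences in the *Glul* result was not tested.

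The difference in *Glul* was larger per length, but it did not pass the test on that scale either. In TPM, Salmon’s abundance in which reads are divided by transcript length, *Glul* was at 27.03, 29.2, 27.7, 28.3, and 22.2 in WT and at 38.0, 47.3, 35.5, 36.7, and 38.4 in recent KO samples. The groups again did not overlap, and the ratio of the means was 1.46. How many of all genes had no overlap in TPM was not counted. The difference in log2(TPM + 1) was 0.52 with limma's moderated test (adjusted p = 0.0642), on a scale on which the median of all genes was 0.048 higher in recent KO samples. With an offset for transcript length in the edgeR fit, the log2 fold change was 0.47 (unadjusted p = 0.000931, adjusted p = 0.141), with a larger p than without the offset (unadjusted p = 0.000351). The average effective length of *Glul* was 1041 ± 133 bases in WT and 957 ± 42.3 bases in recent KO samples, with overlap between groups and a ratio of 0.919. The ratio was larger in TPM than in CPM for the other enzymes as well. For *Got2* it was 1.12 and 1.07, with an average effective length of 2214 bases in WT and 2232 in recent KO samples. The part of length in the larger *Glul* ratio was not tested.

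In all, 3 annotated transcripts held at least 5% of the *Glul* reads, and the difference between groups fell in near equal parts on a long and a short transcript, at 4.87 CPM for *Glul-201* and 4.62 CPM for *Glul-202*. *Glul-201*, of 2792 bases, held 65.1 ± 4.03% of the reads in WT and 61.3 ± 5.75% in recent KO samples. *Glul-202*, of 681 bases, starts from an exon of its own at chr1:153900606-153900677, downstream of the start exon of *Glul-201* at chr1:153899944-153900059, and shares the next 3 exons. It held 23.4 ± 6.13% of the reads in WT and 28.2 ± 1.06% in recent KO samples.

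In CPM, *Glul-202* was at 6.67, 10.5, 9.70, 10.8, and 5.68 in WT and at 14.7, 14.9, 11.6, 12.0, and 13.1 in recent KO samples. Every recent KO sample lay above every WT sample, and the means differed by 1.53-fold, with the smallest p that an exact two-sided permutation test of 5 samples against 5 can give (p = 0.00794). It was 1 of 15 transcripts of these enzymes, compared in this way, and the groups of the other 14 overlapped. Of all 26334 transcripts with at least 5% of the reads of a tested gene, 1.48% had groups that did not overlap, and 0.695% had every recent KO sample above every WT sample, as here. *Glul-201* was 24.0 ± 1.55 CPM in WT and 28.9 ± 4.46 in recent KO samples, with 4 of 5 recent KO samples above every WT sample (exact permutation p = 0.0556). *Glul-203* was 4.22 ± 1.24 CPM in WT and 4.77 ± 2.50 in recent KO samples, and ranged from 1.43 to 8.16 CPM among the latter.

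No difference in the shares of the 3 transcripts passed the test of transcript usage, which asks whether a transcript takes another share of its gene. Of 20752 transcripts tested, 7 were called (0.0337%), and 277 had an unadjusted p under 0.05 (1.33%). The 10 tested transcripts of the 9 enzymes had unadjusted p-values of 0.42 to 0.983 in edgeR, and 0 of the 10 were called by edgeR or by limma. With limma's diffSplice, 1518 of the 20752 transcripts had an unadjusted p under 0.05. In that test *Glul-202* had an unadjusted p of 0.106 (adjusted p = 0.778). Transcripts that share exons divide the same reads, so the level of *Glul-202* rests on the estimate that Salmon made. *Glul-203* is 1696 bases in the files and 379 bases in the older annotation used for positions.

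**Figure D2:**
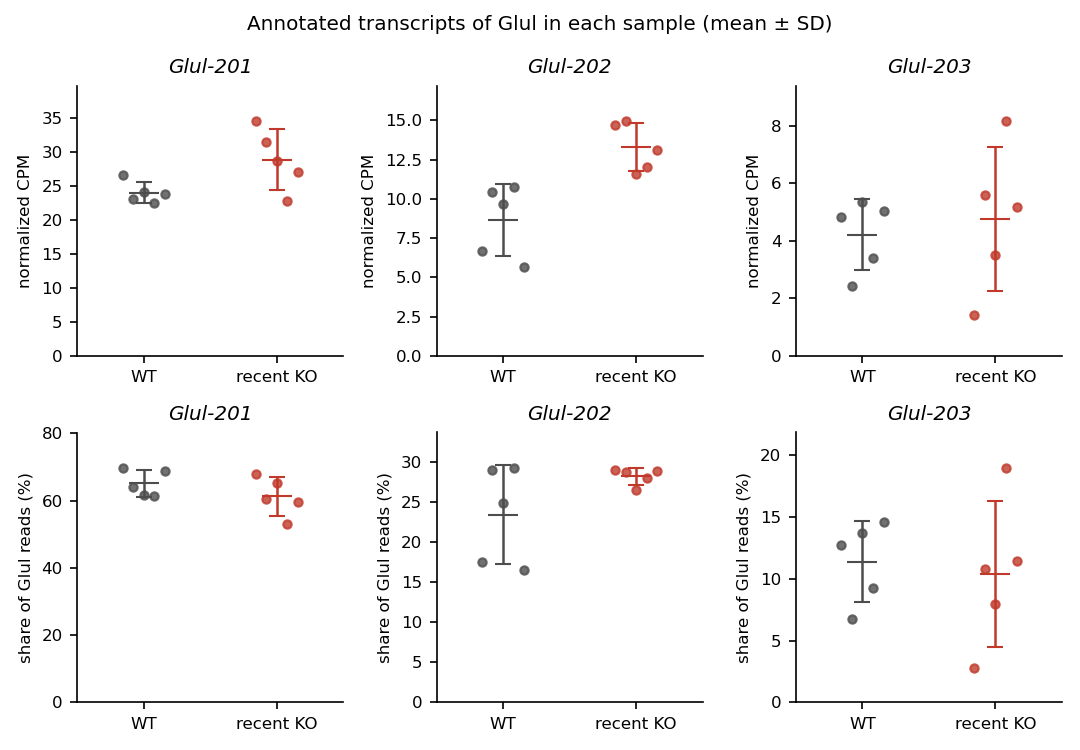
Normalized CPM (upper row, from 0) and share of the *Glul* reads in percent (lower row, from 0) of 3 annotated *Glul* transcripts in 5 WT and 5 recent KO samples; each point is a sample, with the mean and SD. *Glul-202* in CPM is the only panel without overlap, at 5.68 to 10.8 in WT and 11.6 to 14.9 in recent KO samples, whereas its share runs from 16.5% to 29.2% in WT and from 26.4% to 29.0% in recent KO samples.

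The genes whose log2 CPM followed *Glul* most closely over the 10 samples were a noncoding gene of the symbol *Tmem147os* (ENSMUSG00000109224, Pearson's r = 0.929), *Gm47283* (r = 0.925), and *Adi1* (r = 0.922), of 12372 other tested genes. These samples share the group difference, so a gene that differs between groups can score high by that alone, and *Gm47283* (8.19 CPM in WT and 71.5 in recent KO samples, edgeR adjusted p = 0.00136) and *Adi1* (110.0 and 168 CPM, edgeR adjusted p = 0.000174) did differ. *Adi1* encodes an enzyme of methionine salvage.

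Glutamate dehydrogenase releases the amino group of glutamate as ammonia inside mitochondria. *Glud1* (chr14:34310727-34345265, plus strand) was the steadiest of the enzymes in WT, at 99.1, 98.4, 95.5, 97.9, and 98.5 CPM. The recent KO samples were at 96.9, 112, 101, 91.1, and 97.2 CPM, spread on both sides of the WT range. The coefficient of variation was 1.42% in WT and 7.78% in recent KO samples. The means, 97.9 ± 1.38 and 99.7 ± 7.75 CPM, differed by 1.02-fold with a 95% interval of 0.931 to 1.11 (edgeR adjusted p = 0.923). Without recent KO replicate 2, the highest sample, the log2 fold change was -0.018 in place of 0.027.

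The aspartate aminotransferases exchange the amino group of glutamate for that of aspartate, *Got2* in mitochondria and *Got1* in the cytosol, and together they are part of the malate-aspartate shuttle that carries reducing equivalents across the mitochondrial membrane. *Got2* (chr8:95864134-95888547, minus strand) was at 206.9, 191.1, 201.7, 205.5, and 198.0 CPM in WT and at 217.8, 240.2, 211.9, 202.1, and 198.8 in recent KO samples. Of the recent KO samples 3 lay above the WT range and 2 inside it. The means were 200.6 ± 6.36 and 214.2 ± 16.4 CPM, a fold change of 1.07 with a 95% interval of 0.976 to 1.17 (edgeR adjusted p = 0.640). 

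*Got1* (chr19:43499752-43524605, minus strand) was at 27.9, 26.8, 27.9, 31.5, and 27.4 CPM in WT and at 32.9, 32.5, 35.0, 27.9, and 26.2 in recent KO samples. WT replicate 4 stood above the other 4 WT samples, and the recent KO samples fell into 3 above the WT range, 1 inside it, and 1 below it. The means were 28.3 ± 1.83 and 30.9 ± 3.68 CPM, a fold change of 1.09 with a 95% interval of 0.959 to 1.25 (edgeR adjusted p = 0.677).

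Alanine aminotransferase 2 joins pyruvate and glutamate in mitochondria to give alanine and α-ketoglutarate. *Gpt2* (chr8:85492576-85527560, plus strand) was the lowest of the enzymes. Its WT samples lay close together, at 3.82, 3.99, 4.16, 4.35, and 4.13 CPM, and its recent KO samples lay far apart, at 2.88, 2.31, 5.33, 5.18, and 3.92 CPM. Of the recent KO samples 2 were above the WT range, 2 were below it, and 1 was inside it. The coefficient of variation was 4.86% in WT and 34.3% in recent KO samples, and this difference in spread was not tested. These values rest on 33 to 109 estimated reads a sample. The means, 4.09 ± 0.199 and 3.92 ± 1.34 CPM, gave a fold change of 0.967 with a wide 95% interval of 0.702 to 1.33 (edgeR adjusted p = 0.964).

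Asparagine synthetase moves the amide nitrogen of glutamine to aspartate, and its gene is a known target of the response to amino acid shortage. *Asns* (chr6:7675169-7693254, minus strand) was at 51.7, 56.5, 57.6, 76.9, and 53.3 CPM in WT and at 59.3, 65.1, 54.5, 51.4, and 51.4 in recent KO samples. WT replicate 4 was higher than every other sample of either group. The recent KO samples fell inside the WT range or just below it, and the means were 59.2 ± 10.2 and 56.3 ± 5.88 CPM. The fold change was 0.952 with a 95% interval of 0.811 to 1.12 (edgeR adjusted p = 0.881), and its log2 value moved from -0.071 to 0.039 without WT replicate 4. *Asns* and *Got1*, the enzymes whose start windows hold the TGATGNAA letters, did not pass the test in either direction.

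Glutamine:fructose-6-phosphate amidotransferase opens the hexosamine pathway, which makes the amino sugars of glycoproteins. *Gfpt1* (chr6:87042846-87092197, plus strand) was at 6.90, 9.37, 10.7, 11.6, and 7.24 CPM in WT and at 8.30, 6.08, 9.04, 9.01, and 9.69 in recent KO samples. All but 1 of the recent KO samples fell inside the WT range. The means were 9.17 ± 2.07 and 8.42 ± 1.40 CPM, from 87 to 188 reads a sample, and the fold change was 0.925 with a 95% interval of 0.721 to 1.19 (edgeR adjusted p = 0.879). The log2 fold change was -0.11 in this fit, 0.055 with an offset for transcript length, and 0.068 in log2(TPM + 1), so no direction can be given. *Gfpt1* reads were divided over 4 transcripts, led by *Gfpt1-204* with 59.1 ± 5.28% in WT and 61.2 ± 7.36% in recent KO samples. *Gfpt1-201* held 23.2 ± 4.36% in WT and 19.0 ± 4.23% in recent KO samples, *Gfpt1-203* held 9.82 ± 1.96% and 13.7 ± 6.18%, and *Gfpt1-207*, annotated as a retained intron, held 6.26 ± 3.13% and 4.32 ± 3.00%. The groups overlapped for each of these shares.

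Amidophosphoribosyltransferase commits glutamine nitrogen to purine synthesis. *Ppat* (chr5:76913249-76951578, minus strand) was at 57.0, 53.9, 53.3, 59.4, and 59.2 CPM in WT and at 62.7, 64.7, 68.9, 58.1, and 61.3 in recent KO samples. Of the recent KO samples 4 lay above the WT range and 1 lay inside it. The means were 56.6 ± 2.87 and 63.1 ± 4.01 CPM, a fold change of 1.12 with a 95% interval of 1.01 to 1.23 (edgeR unadjusted p = 0.0281, adjusted p = 0.420). The unadjusted p was 0.0607 without WT replicate 2, 0.0730 without WT replicate 3, 0.0844 without recent KO replicate 3, 0.0566 without the filter on low counts, and 0.0689 with replicate number as a block. In TPM the groups did not overlap, though by a narrow margin, with 16.36 in the lowest recent KO sample and 16.35 in the highest WT sample (limma on log2(TPM + 1), difference 0.25, adjusted p = 0.383). How many of all genes had no overlap in TPM was not counted, and 63% of the genes tested had a higher mean TPM in recent KO samples.

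*Ppat* and *Paics*, the gene of a later purine enzyme, are transcribed from opposite strands and overlap by 272 bases at their starts. The library kit does not mark strand, so reads of these bases can come from either gene. *Paics* was more abundant, at 270.0 ± 13.3 CPM in WT and 297 ± 13.1 in recent KO samples, with a log2 fold change of 0.14 (edgeR unadjusted p = 0.0266, adjusted p = 0.415). *Ppat-202*, the coding transcript, held 74.3 ± 2.17% of the *Ppat* reads in WT and 71.6 ± 7.62% in recent KO samples. The rest was nearly all *Ppat-201*, which is annotated as a retained intron and begins downstream of the overlap. Its share was 22.8% to 27.9% in WT and reached 40.58% in recent KO replicate 1, whereas the other recent KO samples were at 21.7%, 29.2%, 25.4%, and 23.7%.

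CAD carries the opening steps of pyrimidine synthesis on 1 protein, beginning with the use of glutamine nitrogen for carbamoyl phosphate. *Cad* (chr5:31054780-31078479, plus strand) was at 38.6, 43.3, 47.1, 42.4, and 47.4 CPM in WT and at 47.0, 53.4, 53.8, 43.9, and 44.2 in recent KO samples. Recent KO replicates 2 and 3 lay above the WT range and the other 3 inside it. The means were 43.8 ± 3.65 and 48.4 ± 4.83 CPM, a fold change of 1.11 with a 95% interval of 0.977 to 1.25 (edgeR adjusted p = 0.591). *Cad-201* held at least 98.3% of the *Cad* reads in every sample, but as little as 80.0% of the *Cad* TPM, because short *Cad* transcripts weigh more per read in TPM.

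**Figure D3:**
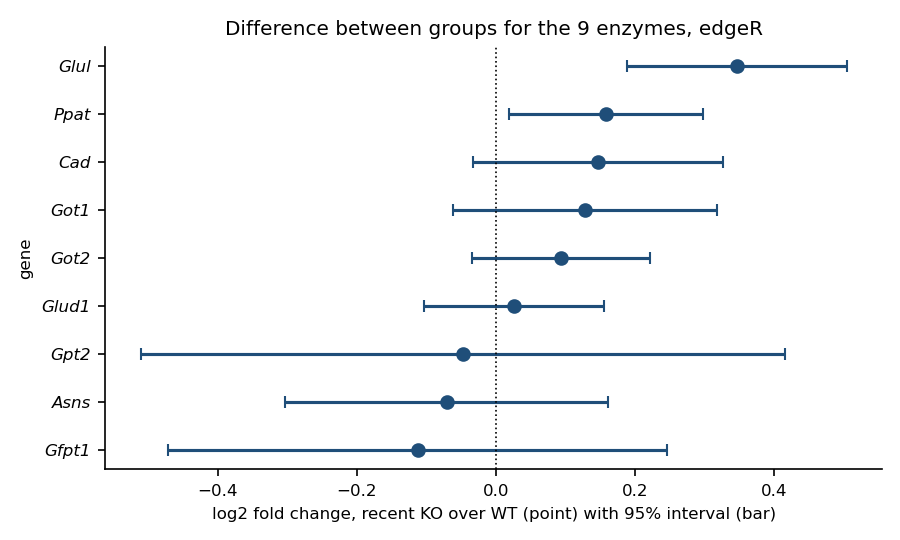
Log2 fold change between recent KO and WT samples (x axis, above 0 where recent KO is higher) for each of the 9 enzymes (y axis), with points for the edgeR estimates and bars for their 95% intervals. The bars of *Glul* (0.35) and *Ppat* (0.16) lie to the right of 0, and the other 7 bars cross it.

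As a group, 6 of the 9 enzymes had a log2 fold change above 0, against 49.6% of all genes tested, and their median was 0.094 against -0.0018 for all genes. The spread between samples was not the same for all of them. In WT the coefficient of variation ran from 1.42% for *Glud1* to 22.6% for *Gfpt1*, and it was larger in recent KO than in WT samples for every enzyme except *Asns* and *Gfpt1*. The extreme values did not fall to a single sample. Recent KO replicate 3 had the highest level of 4 enzymes (*Got1*, *Gpt2*, *Ppat*, and *Cad*), and recent KO replicate 2 that of 3 (*Glul*, *Glud1*, and *Got2*). WT replicate 4 had the highest level of the other two, *Asns* and *Gfpt1*. For 6 of the 9 enzymes a single transcript held nearly all reads, and *Glul*, *Gfpt1*, and *Ppat* were the exceptions.

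Per length, the enzymes covered a wide range of abundance in WT GMPs. *Got2* led at 68.2 ± 4.74 TPM, above 87.0% of the genes tested. *Glul* (26.9 ± 2.74 TPM), *Asns* (26.3 ± 3.46), and *Glud1* (24.8 ± 2.19) followed, and the ranges of neighbors in this trio overlapped. *Ppat* (14.8 ± 1.28 TPM), *Got1* (12.5 ± 0.634), *Cad* (5.05 ± 0.456), *Gfpt1* (2.81 ± 0.571), and *Gpt2* (0.925 ± 0.0355) then stood apart from each other without overlap.

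In recent KO samples the order was the same except that *Glud1* and *Asns*, which overlapped in both groups, changed places. *Glul*, at 39.2 ± 4.66 TPM, did not overlap with the next enzyme, *Glud1* at 26.6 ± 3.19 TPM, which was followed by *Asns* at 26.4 ± 2.93 TPM. *Ppat* (17.8 ± 1.39 TPM) and *Got1* (14.3 ± 1.71) kept their places but overlapped. *Got2* remained the most abundant at 76.4 ± 7.14 TPM, and *Cad* (6.24 ± 0.788), *Gfpt1* (3.10 ± 1.23), and *Gpt2* (0.941 ± 0.341) were again the lowest. The mean TPM was higher in recent KO samples for all 9 enzymes, by a small margin for *Asns*, and for 63% of all genes tested. In normalized counts 6 of the 9 were higher, and *Asns*, *Gpt2*, and *Gfpt1* were lower.

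**Figure D4:**
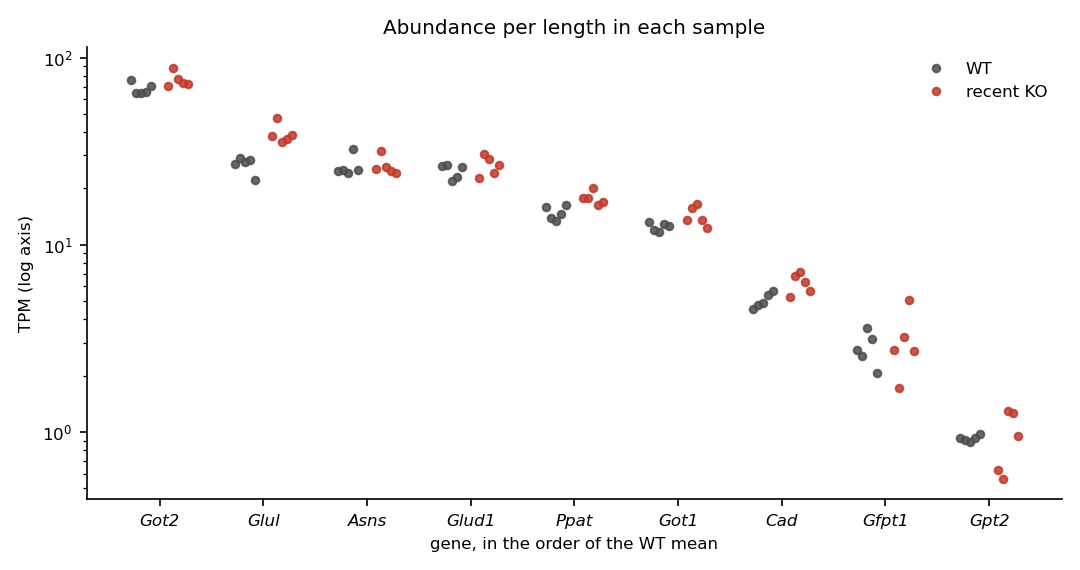
TPM (y axis, log scale) of the 9 enzymes in each of 5 WT and 5 recent KO samples, with genes placed along the x axis in the order of their WT means; each point is a sample. *Got2* lies highest and *Gpt2* lowest in both groups, and the *Glul* points of the recent KO samples, from 35.5 TPM upward, lie clear of those of *Asns* and *Glud1*.

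The 9 enzymes sit among carriers, other glutamine and glutamate enzymes, and the pathways that they feed. Of 74 such genes, 63 were tested. One was called, *Bcat1*, and 13 had an unadjusted p under 0.05, of which 8 were higher and 5 lower in recent KO samples. A total of 36 of the 63 had a log2 fold change above 0, and the median was 0.013. The 13 are 20.6% of the genes tested from these lists, where 10.2% of all genes had such a p, and the 36 are 57.1%, where 49.6% of all genes were above 0. The lists were chosen with earlier results of these data known, so these shares do not test whether the lists differ from other genes.

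*Bcat1* encodes the cytosolic branched-chain aminotransferase, an enzyme that makes glutamate as it breaks down branched-chain amino acids. It was 16.5 ± 3.08 CPM in WT and 24.6 ± 1.79 in recent KO samples without overlap, a log2 fold change of 0.58 (edgeR adjusted p = 0.0468). The call was near the threshold. It held under 6 of the 11 alternatives that kept all samples and in 2 of the 10 fits that left out a sample. The adjusted p ran from 0.000518 to 0.123 in the former and from 0.00170 to 0.150 in the latter. The direction was the same in all of these. *Bcat1* belongs to a list of 26 other genes around glutamate metabolism, of which 19 were tested. In that list, *Psat1*, a transaminase of serine synthesis, had a log2 fold change of 0.17 (edgeR unadjusted p = 0.0131) and *Aldh4a1*, which makes glutamate from proline, of -0.28 (edgeR unadjusted p = 0.0207). Neither passed the adjusted threshold. The median of the list was -0.02, and 7 of 19 were above 0.

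Of 11 genes listed as other glutamine-using enzymes, 9 were tested, and all 9 had a log2 fold change above 0. The values ran from 0.00033 to 0.29 with a median of 0.09. The list includes *Nit2* (tested, 0.019) and *Cps1* (not tested), whose enzymes do not take glutamine itself. None of the 9 was called, and 2 had an unadjusted p under 0.05. These were *Gmps*, which makes GMP from XMP (log2 fold change 0.13, edgeR unadjusted p = 0.0354), and *Qrsl1*, part of the mitochondrial enzyme that makes glutaminyl-tRNA (0.29, edgeR unadjusted p = 0.0259). *Cps1*, the carbamoyl phosphate synthetase of the urea cycle, had 0 reads in every sample, which allows a level of up to 0.214 CPM, and *Gfpt2*, the paralog of *Gfpt1*, was at 0.124 CPM in WT and 0.130 in recent KO samples and was not tested.

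In purine synthesis, which *Ppat* opens, all 11 listed genes were tested and 0 were called. *Paics*, *Gmps*, and *Prps1*, which makes the ribose phosphate that PPAT uses, had unadjusted p-values under 0.05 with higher levels in recent KO samples (*Prps1*, 131 ± 3.97 and 147 ± 10.5 CPM). *Impdh1*, which opens the branch to guanine nucleotides, was 99.6 ± 3.92 CPM in WT and 84.4 ± 6.82 in recent KO samples without overlap, a log2 fold change of -0.24 (edgeR unadjusted p = 0.00238, adjusted p = 0.190). How many of all genes lay lower without overlap was not counted. Its more abundant paralog *Impdh2* went the other way, at 281 ± 6.09 CPM in WT and 302 ± 25.8 in recent KO samples (log2 fold change 0.10, edgeR unadjusted p = 0.118). The purine median was 0.07, with 7 of 11 above 0.

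The remaining lists held no called gene. In the pyrimidine pathway after CAD, the 6 genes had a median of 0.01, and *Uck2*, a salvage kinase, was the only one with an unadjusted p under 0.05 (log2 fold change -0.18, edgeR unadjusted p = 0.0285). In the hexosamine pathway after GFPT1, *Gnpnat1*, which acetylates glucosamine phosphate, had a log2 fold change of 0.23 (edgeR unadjusted p = 0.0112). *Oga*, which removes O-GlcNAc from proteins, had one of -0.22 (edgeR unadjusted p = 0.0155), and the median of the 5 hexosamine genes was -0.04. The other 5 genes of the malate-aspartate shuttle had a median of -0.02, and *Slc25a12*, a mitochondrial aspartate-glutamate carrier, was 121 ± 7.26 CPM in WT and 109 ± 6.12 in recent KO samples (log2 fold change -0.15, edgeR unadjusted p = 0.0265).

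Among 16 carriers of glutamine, glutamate, or amino acids exchanged for them, 14 were tested, 0 were called, and 10 had a log2 fold change above 0. *Slc7a5*, the transporting light chain of an exchanger that trades glutamine for leucine, was 42.2 ± 3.38 CPM in WT and 49.0 ± 7.58 in recent KO samples (log2 fold change 0.22, edgeR unadjusted p = 0.0499). *Slc25a12*, given above, was the other carrier with an unadjusted p under 0.05. The carriers' median was 0.05.

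**Figure D5:**
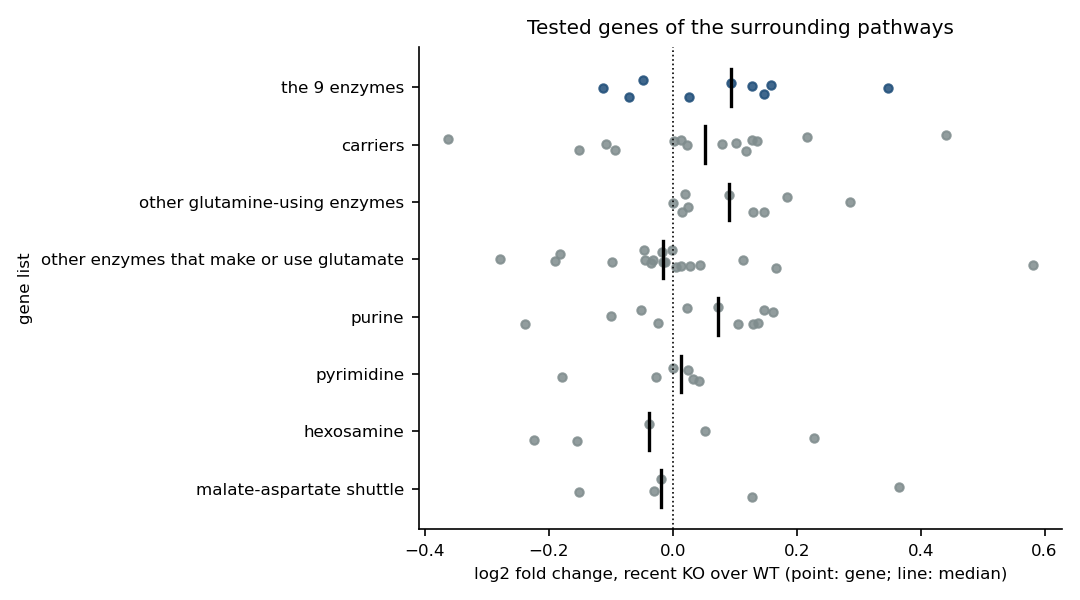
Log2 fold change between recent KO and WT samples (x axis, above 0 where recent KO is higher) for each tested gene of the 9 enzymes and of 7 lists of related genes (y axis); each point is a gene, and the black line is the median of its list. *Bcat1* at 0.58 and *Glul* at 0.35 lie to the right of the other points of their rows, and the medians lie between -0.04 and 0.09.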

How the data were processed

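The authors sorted GMPs, made cDNA with SMARTseq V4, sequenced paired-end 150 bp reads on a NovaSeq, and quantified Gencode M27 transcripts (GRCm39) with Salmon (version 1.5.1 in the submitters' processing notes). They deposited for each sample the estimated counts of Salmon, which are unnormalized, can be fractional, and are given per transcript, and its TPM, scaled to effective transcript length. The authors' own DESeq2 comparison per gene (version 2.11.40.6; fold changes and p-values) was not used.

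Transcripts were matched by Ensembl identifier to GENCODE M21 (GRCm38): 137161 of 140789 (97.42%) matched, and the 3628 others, with 0.348% to 0.390% of the reads, were left out. Positions are from M21, and none was converted. Estimated counts were summed per gene, rounded, normalized by TMM, filtered by filterByExpr (minimum count 10), and tested in edgeR 4.0.16 (R 4.3.3) with the quasi-likelihood method and Benjamini-Hochberg adjustment at 0.05. Normalized CPM uses the same factors, and intervals cover 95%. Transcript usage was tested with edgeR's diffSpliceDGE. For single values the exact permutation test, two-sided, was used. Floors cover counting error only, since amplified reads without molecular identifiers are not independent molecules. Samples of a group are labeled as biological replicates, and no pair of samples held identical values. Near copies of the enzymes (BLAST 2.17.0, identity of at least 90% over at least 200 bases) were at most 0.103 CPM in 8 cases, other than *Paics*, and 1, *Gm3922*, had no level here. Scripts were tested on simulated data. Python 3.11.15 and scipy 1.17.1 served the other steps.

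The genes were also tested after other normalizations (RLE, upper quartile, library size), under other filters (none, or 50 reads on average), with an offset for transcript length, with robust dispersions, and with replicate number as a block. DESeq2 1.42.0 and limma 3.58.1 replaced edgeR, the latter on log2 TPM with 1 or 0.1 added where the mean TPM was 1 or more. Each sample was left out in turn. For transcripts, limma's diffSplice and shares of TPM were tried, and TPM was rescaled to the genes tested.

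The text names all 9 enzymes, listed genes that passed the adjusted or unadjusted threshold of 0.05, transcripts with at least 5% of an enzyme's reads, and the 3 genes most like *Glul*. *Gfpt2*, *Cps1*, *Nit2*, *Impdh2*, and single markers were named after their values were seen. The enzymes and all lists were chosen with earlier results of these data known.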

Additional observations from a re-analysis of the deposited data

Results flagged for a closer look

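A sample was set apart where its gap to the nearest of the other 4 in its group, over the group's range, passed Dixon's critical value of 0.71. Of 48 groups examined over the enzymes and their transcripts, 3 did so, where chance gives about 2.4. All 3 were in WT replicate 4. *Asns* was at 76.9 CPM in that sample and at 51.7 to 57.6 CPM in the other WT samples. *Got1* was at 31.5 CPM there and at 26.8 to 27.9 CPM in the others. The share of *Cad* reads given to *Cad-201* was 98.3% there and at least 99.5% in each of the others.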

How the results depend on the processing

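With edgeR's settings as described, 41 genes (15 higher, 26 lower) and 0 of the 9 enzymes were called. The count of genes was 206 without the filter on low counts (110 higher, 96 lower), 156 in DESeq2 (77 higher, 79 lower), and in limma 25 with 1 and 24 with 0.1 added to TPM before taking logs. It was 46 with library size scaling, with a split of 26 higher and 20 lower. Fits that each lacked 1 sample gave 25 to 91 genes, with 91 when recent KO replicate 2 was absent, 26 when WT replicate 3 was, and 25 when recent KO replicate 3 or 4 was. The 1 enzyme called with upper quartile, library size, no filter, or DESeq2 was *Glul* in each case, at log2 fold changes of 0.36, 0.42, 0.35, and 0.35, and leaving out any sample left 0 enzymes called. The same replicate number did not pair samples, since deviations of same-numbered samples correlated at -0.177 to 0.048 and no sample correlated best with its own number; the replicate block gave 20 genes (4 higher, 16 lower), 0 enzymes, and 4 transcripts, with an adjusted p of 0.211 for *Glul*. *Mpc2* fell short of the threshold under 5 alternatives (adjusted p of 0.0577 to 0.138) and without recent KO replicate 1 (0.05002).

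For transcript usage, 7 transcripts were called, against 2 at a mean count of at least 50, 25 with limma's diffSplice, and 10 to 35 leaving out 1 sample (35 without recent KO replicate 2). None of these calls was a transcript of the 9 enzymes.

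Signs turned only for enzymes that no setting called. *Glud1* was at -0.018 (log2) without recent KO replicate 2, the lowest of values up to 0.057 when 1 sample was left out. *Gpt2* stood at 0.030 with library size scaling, and at 0.041 and 0.089 without recent KO replicates 1 and 2, in a range from -0.185. *Asns* was at 0.0064 with library size scaling, at 0.0042 and 0.0044 with limma, and at 0.039 without WT replicate 4, in a range from -0.128. *Gfpt1* was at 0.055 with the length offset and at 0.068 and 0.076 with limma. Among differences in share, KO minus WT in percentage points, *Glul-203* turned to 0.895 (lowest -3.15), *Ppat-202* to 0.379 (lowest -4.45), and *Ppat-201* to -0.412 (highest 4.32) without recent KO replicate 1. *Gfpt1-204* turned to -0.134 in shares of TPM, -0.092 when WT replicate 4 was left out, and -0.432 when recent KO replicate 3 was (highest 3.97). The cause was not tested in any of these. Rescaling TPM to the tested genes turned none of the 9 ratios. The limma fits left out *Gpt2*, whose mean TPM is under 1. Depth limits *Gpt2* and *Gfpt1* most.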
